A study of Mus musculus with 12 samples.

Results

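Glucocorticoid response genes were examined in liver and subcutaneous fat of male mice with or without hepatic expression of human HKDC1. The group was fixed by name and held 10 of the 54532 genes in the count table: the receptor Nr3c1, the enzyme Hsd11b1, the target genes Fkbp5, Tsc22d3, Zbtb16, Sgk1, Klf9 and Errfi1, and the metallothioneins Mt1 and Mt2. These 10 genes were chosen with the difference between the vectors already known, so that difference is given here as a description. Counts of members called between the vectors stand only beside the share over all genes, and nothing is read from them. The mice received 1 tail-vein dose of an adeno-associated virus of serotype 8 at 10 weeks of age and ate a low-fat diet for the next 16 weeks. In the hHKDC1 OE mice the virus carried full-length human HKDC1, a hexokinase-domain protein, under the control of a promoter taken from the thyroxine-binding globulin gene, used to limit expression to hepatocytes. In the null mice it carried the promoter without the cDNA. Each of the 4 groups (liver null, liver hHKDC1 OE, fat null, fat hHKDC1 OE) held 3 libraries, and nothing in the labels says whether the fat and liver libraries of 1 number came from 1 mouse. The human transgene itself was not analysed here.

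Glucocorticoids, mainly corticosterone in mice, enter cells and bind the glucocorticoid receptor, the product of Nr3c1, which is held ready by Hsp90 and its helper proteins. The bound receptor moves to the nucleus, where it activates genes that carry glucocorticoid response elements and represses many inflammatory genes. In liver this hormone supports gluconeogenesis and amino acid breakdown, and in fat it shapes adipocyte differentiation and lipid turnover. Inside both tissues 11β-hydroxysteroid dehydrogenase type 1, the product of Hsd11b1, turns the inactive 11-keto steroid into the active hormone.

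The library totals lay between 15496019 and 19954971 counts. Levels are given as CPM, each count divided by its library total after TMM scaling over the 12 libraries, and levels of different genes are compared only as deposited FPKM, which also divides by gene length. Liver libraries held 107039 to 160957 CPM of 10 hepatocyte markers and 41.3 to 151 CPM of 10 adipocyte markers. Fat libraries held 19124 to 32336 CPM of the adipocyte markers, and also 2241 to 7221 CPM of the hepatocyte markers and 432 to 18769 CPM of 10 skeletal muscle markers. The description field of replicates 2 and 3 of the hHKDC1 OE group, in each tissue, calls them HKDC1 knockout libraries, whereas their titles and treatment labels say overexpression. They were analysed as hHKDC1 OE libraries, and each member's fitted differences are also given without these 4 libraries.

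Promoter sequences were available for 8 of the 10 genes as RefSeq windows of 300 bases, from 250 before to 50 after an annotated start, on GRCm38.p6. A palindromic glucocorticoid response element, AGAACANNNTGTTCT, was searched in them, with its single arm AGAACA and the core metal response elements TGCGCNC and TGCACNC, all on both strands. The full element was present in 3 of 32851 windows of all genes (0.00913%), and 1 of these 3 was a window of Sgk1. The 3 stretches below are shown because they hold the full element, or the metal elements of the gene pair whose counts behaved differently. Each is the 250 bases before a start on the plus strand, with the full glucocorticoid element (Sgk1) or the metal elements (Mt1, Mt2) in capitals.

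Sgk1 (chr10:21993640-21993889): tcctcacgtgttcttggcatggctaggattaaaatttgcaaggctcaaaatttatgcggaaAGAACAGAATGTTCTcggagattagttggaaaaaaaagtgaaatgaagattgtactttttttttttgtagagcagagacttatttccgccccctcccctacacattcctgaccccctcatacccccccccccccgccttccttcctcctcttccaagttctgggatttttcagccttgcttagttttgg

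Mt1 (chr8:94178839-94179088): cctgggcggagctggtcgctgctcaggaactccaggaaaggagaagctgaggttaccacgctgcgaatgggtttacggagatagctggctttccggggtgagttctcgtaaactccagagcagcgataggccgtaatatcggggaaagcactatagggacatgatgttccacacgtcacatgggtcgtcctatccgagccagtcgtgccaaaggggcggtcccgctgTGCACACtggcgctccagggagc

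Mt2 (chr8:94172368-94172617): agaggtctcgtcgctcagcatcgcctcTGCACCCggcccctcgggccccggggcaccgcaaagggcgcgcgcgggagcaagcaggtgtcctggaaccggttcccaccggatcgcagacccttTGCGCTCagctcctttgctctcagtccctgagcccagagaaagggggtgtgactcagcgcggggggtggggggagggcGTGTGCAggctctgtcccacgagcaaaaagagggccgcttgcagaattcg

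Sgk1 spans chr10:21882184-21999903 and Mt1 chr8:94179082-94180327, both on the plus strand. The Sgk1 element began at position -189 from the start of that window, 1 of 6 Sgk1 windows. Single arms, which include those of the full element, were found in Sgk1 (5 matches) and Tsc22d3 (1 match in its 3 windows), against 19% of all windows with at least 1. No match to the full element or the single arm lay in the windows of Fkbp5, Klf9, Errfi1, Hsd11b1, Mt1 or Mt2, which says only that these letters are not in these windows. Counting the bases after the start as well, Mt1 held 1 TGCGCNC and 2 TGCACNC matches and Mt2 held 2 of each, while a window of Sgk1 held 1 TGCGCNC and that of Hsd11b1 held 1 TGCACNC, against 15.4% and 12.6% of all windows with at least 1.

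The receptor Nr3c1 was expressed in every library, and its null and hHKDC1 OE values overlapped in both tissues. In liver its level was 90.5, 77.4 and 80.9 CPM in null replicates 1 to 3 and 97.7, 63.1 and 128 CPM in hHKDC1 OE replicates 1 to 3. The hHKDC1 OE livers thus lay on both sides of the null livers, and the log2 fold change was 0.22 ± 0.22 (SE, n = 3 per group). In fat the null libraries held 143, 124 and 110.0 CPM and the hHKDC1 OE libraries 100.5, 125 and 121 CPM. These ranges overlapped too, with a log2 fold change of -0.17 ± 0.17.

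The values of Hsd11b1 under the 2 vectors also overlapped in both tissues. The fat values were 158, 180.2 and 190.4 CPM in null mice and 198, 113 and 231 CPM in hHKDC1 OE mice, so that the null values fell within the span of the others. Its log2 fold change in fat was -0.01 ± 0.27. In liver it measured 869.7, 881 and 653 CPM in null mice against 694, 782 and 579 CPM, a log2 fold change of -0.22 ± 0.19 with overlapping groups.

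Fkbp5, which encodes a co-chaperone that lowers the receptor's hormone affinity and is itself induced by it, was lower in hHKDC1 OE mice in both tissues. The gene spans chr17:28399094-28517527 on the minus strand of GRCm38. In fat it measured 127, 209.6 and 233 CPM in null replicates 1 to 3 and 53.4, 106 and 37.6 CPM in hHKDC1 OE replicates 1 to 3. In liver the null values were 161, 221 and 222 CPM and the hHKDC1 OE values 63.1, 136 and 48.4 CPM. All 3 hHKDC1 OE libraries lay below all 3 null libraries in each tissue, and replicate 2 was the highest of the hHKDC1 OE libraries in both. The log2 fold change was -1.59 ± 0.42 in fat and -1.27 ± 0.35 in liver.

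Tsc22d3, which encodes the leucine zipper protein GILZ, an anti-inflammatory mediator of the hormone, had nearly the same profile. It lies at chrX:140539528-140600659 on the minus strand. Its fat values were 235, 259 and 257 CPM in null mice and 99.9, 169 and 78.2 CPM in hHKDC1 OE mice. Its liver values were 324, 336 and 203 CPM against 144, 181 and 74.4 CPM. Again the groups did not overlap in either tissue, replicate 3 was the lowest of the hHKDC1 OE libraries and replicate 2 the highest. The log2 fold change was -1.17 ± 0.29 in fat and -1.10 ± 0.32 in liver.

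Zbtb16, which encodes the transcription factor PLZF, was low in hHKDC1 OE replicates 1 and 3 but not in replicate 2. It spans chr9:48654297-48836222 on the minus strand. In fat the null libraries held 120.4, 172 and 152 CPM and the hHKDC1 OE libraries 55.9, 125 and 21.1 CPM. In liver the corresponding values were 40.3, 69.0 and 71.5 CPM and 25.8, 75.3 and 19.3 CPM. Replicate 2 thus lay inside the null range in fat and above it in liver, and the log2 fold changes of -1.19 ± 0.56 and -0.58 ± 0.46 carried the widest errors of the target genes other than Mt1.

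Sgk1, which encodes a kinase that acts on ion channels and transporters, was much lower in liver than in fat. Its fat values were 94.2, 97.5 and 77.7 CPM in null mice and 53.6, 75.3 and 51.3 CPM in hHKDC1 OE mice. These groups did not overlap, though null replicate 3 and hHKDC1 OE replicate 2 lay close together. In liver 21.6, 24.4 and 19.0 CPM stood against 17.5, 22.6 and 7.94 CPM. The log2 fold change was -0.63 ± 0.19 in fat and -0.42 ± 0.33 in liver, where the groups overlapped.

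Klf9, a Krüppel-like transcription factor induced by glucocorticoids in many cells, had fitted values below 0 in both tissues, nearer 0 in liver. Its fat values were 133, 142 and 102.1 CPM in null mice and 69.2, 102.7 and 59.9 CPM in hHKDC1 OE mice. Only hHKDC1 OE replicate 2 reached the null range there, and the log2 fold change was -0.76 ± 0.24. In liver Klf9 measured 94.9, 95.0 and 87.8 CPM against 88.1, 68.2 and 101.7 CPM, a log2 fold change of -0.10 ± 0.16. Replicate 2 was the lowest of the hHKDC1 OE livers and replicate 3 the highest, the reverse of Fkbp5 in those libraries. The difference between the fat and the liver effect was -0.58 ± 0.30 on the log2 scale for Klf9, and was not called.

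Errfi1, which encodes MIG6, a feedback inhibitor of the epidermal growth factor receptor, was the member with the highest FPKM in liver. It measured 1857, 1701 and 1834 CPM in null livers and 1701, 1621 and 1447 CPM in hHKDC1 OE livers. The highest hHKDC1 OE liver was just below the lowest null liver, and the log2 fold change was only -0.17 ± 0.16. In fat it measured 70.5, 56.6 and 126 CPM in null mice and 42.6, 37.8 and 34.5 CPM in hHKDC1 OE mice, without overlap, and its log2 fold change was -1.19 ± 0.30.

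Null fat replicate 3 had both the highest Errfi1 level and the highest sum of hepatocyte markers, whereas within hHKDC1 OE fat the order of Errfi1 did not follow that sum. The summed hepatocyte markers were 3582, 3050 and 7221 CPM in null fat, against 2746, 3156 and 2241 CPM under hHKDC1 OE, that is 1.81% to 4.62% of the mean sum in livers of the same vector. The liver level of Errfi1 multiplied by each library's percentage equalled 58.4% to 66.1% of the Errfi1 level in null fat and 82.9% to 107% in hHKDC1 OE fat. For Fkbp5, Tsc22d3, Zbtb16, Sgk1, Klf9, Nr3c1 and Mt1 the same product was at most 5.18% of the fat level in every library, and for Hsd11b1 it was 5.37% to 19.4%. With the product subtracted, the ratio of hHKDC1 OE to null means in fat was 0.347 for Fkbp5 (0.346 before) and 0.466 for Tsc22d3 (0.461 before). It was 0.612 for Klf9 (0.614 before) and 0.11 for Errfi1 (0.455 before). The product is no measure of the liver part of a fat level, since for several liver genes it exceeded the whole level in fat, most in hHKDC1 OE fat. For Tat, an enzyme of tyrosine breakdown, it was 132% to 148% of the level in null fat and 103% to 530% in hHKDC1 OE fat. For that reason none of the ratios after subtraction is read as free of liver signal.

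**Figure D1:**
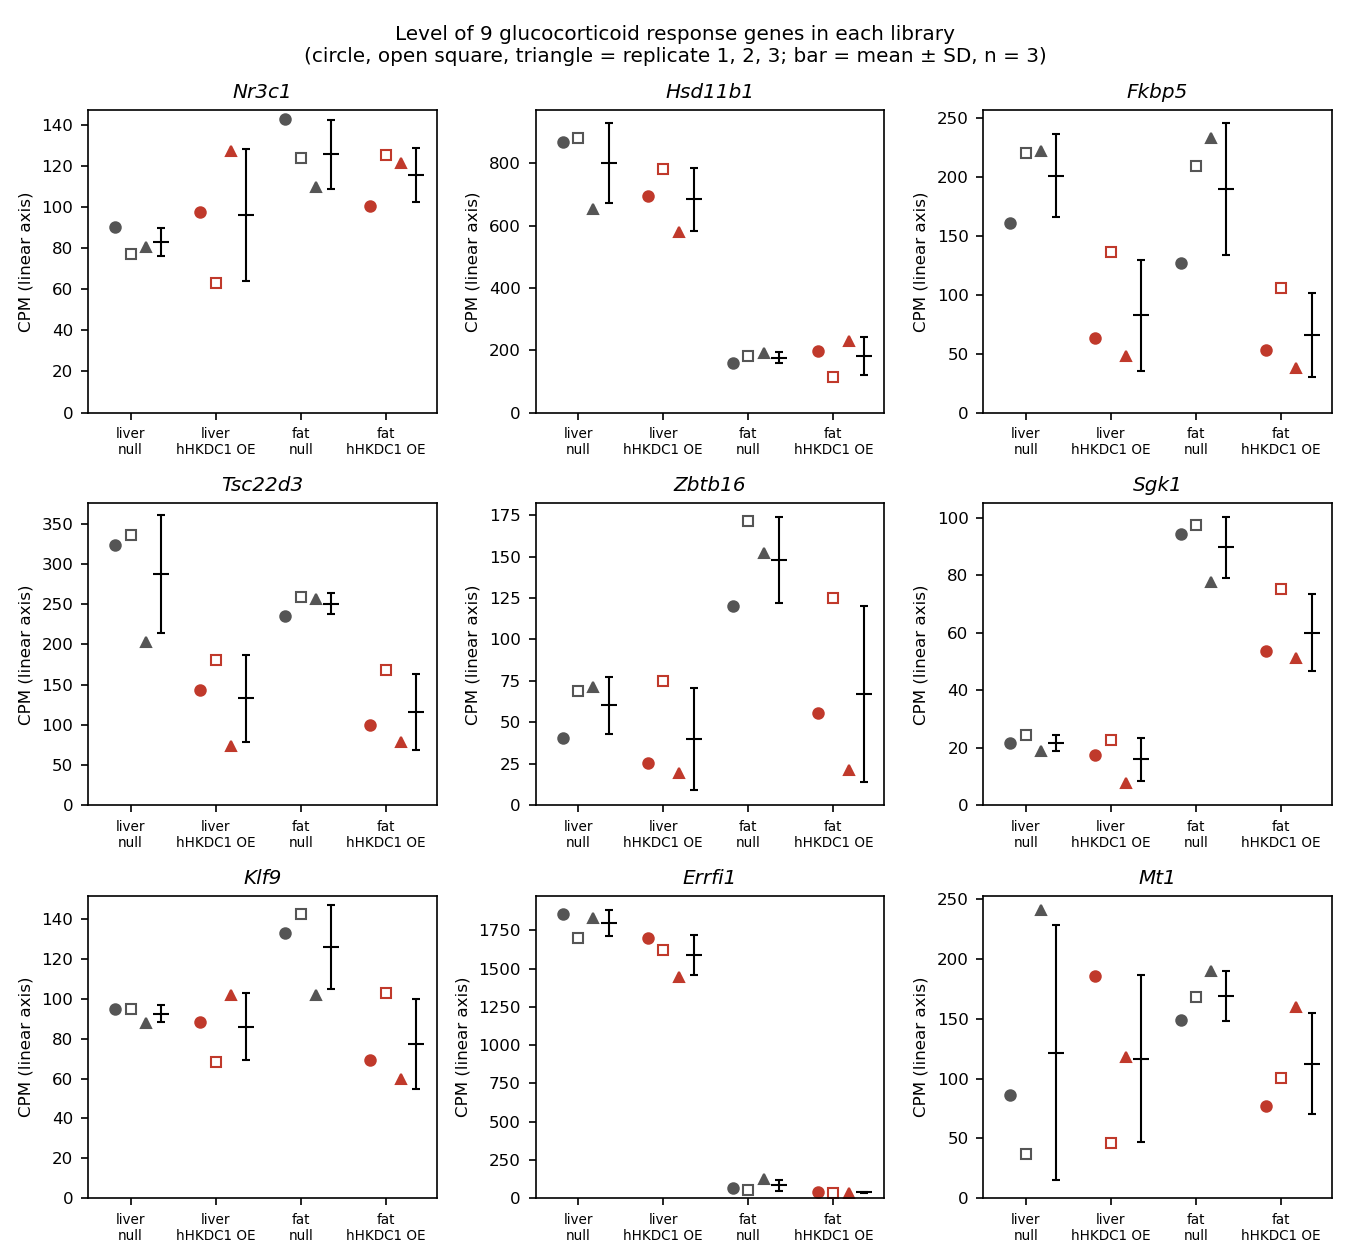
Level of the 9 members other than Mt2 in each library, in CPM on a linear axis that starts at 0. Circles, open squares and triangles are replicates 1, 2 and 3, black bars are the mean ± SD of 3 libraries. In both tissues replicate 2 is the highest hHKDC1 OE library for Fkbp5, Tsc22d3, Zbtb16 and Sgk1, and Mt1 spans 37.3 to 241.2 CPM among the null livers.

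Mt1, a metal-binding protein induced by zinc and by glucocorticoids, varied within each group of livers by more than the group means differed. The null livers held 86.4, 37.3 and 241.2 CPM and the hHKDC1 OE livers 186, 46.3 and 118 CPM. The log2 fold change was -0.07 ± 0.63, an interval that covers changes in either direction, and leaving out hHKDC1 OE replicate 1 gave -0.57 while leaving out null replicate 3 gave 0.94. In fat the values were 149, 168 and 190 CPM against 77.3, 100.6 and 160 CPM. Replicate 3 of the hHKDC1 OE group lay within the null range and the log2 fold change was -0.64 ± 0.28.

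Mt2 could not be measured in this table. It was listed at 0 counts in 9 libraries and at 6, 4 and 3 counts in liver hHKDC1 OE replicate 3 and fat hHKDC1 OE replicates 2 and 3, below the filter of every comparison. Mt2 lies on the plus strand of GRCm38 at chr8:94172664-94173568, upstream of Mt1. Of its 588 exonic bases 432 (73.5%) lie inside the exon of Gm45774, an annotated gene on the minus strand at chr8:94170748-94173412. The library kit did not keep strand. The partner gene was also near 0, with 0 to 43 counts per library, while Mt1, whose exons share no base with another gene, held 428 to 4875. None of the other 9 members shared an exonic base with another annotated gene. Whether fragments over both genes were set aside in counting was not tested, and the low counts of Mt2 are therefore not read as low expression.

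**Figure D2:**
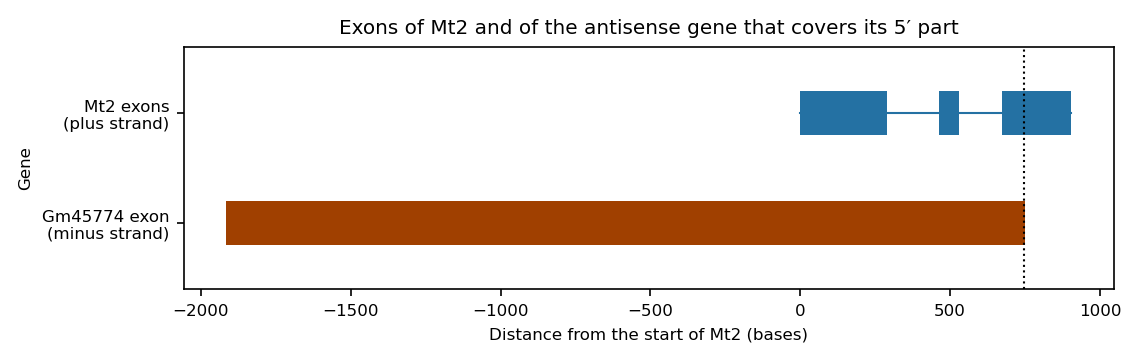
Exons of Mt2 (plus strand, upper row) and of Gm45774 (minus strand, lower row), by distance in bases from the start of Mt2. The dotted line marks the end of the Gm45774 exon, and only the 156 bases of Mt2 to the right of it lie in no other annotated exon.

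Over all genes tested, no gene passed an adjusted p of 0.05 between the vectors in fat or in liver (edgeR quasi-likelihood test, 16380 and 13351 genes, 0% called in each, 2903 and 927 at an unadjusted p under 0.05), whereas DESeq2 called 1301 and 90. Accordingly 0 of the 9 members tested were called in either tissue. In fat all 9 fitted log2 fold changes were below 0, with a median of -0.76 beside -0.05 over all genes, and 4 of the 9 had every hHKDC1 OE library below every null library (Fkbp5, Tsc22d3, Sgk1 and Errfi1), beside 7.26% of all genes. In liver 8 of 9 were below 0, with a median of -0.22 beside 0.01, and 3 did not overlap (Fkbp5, Tsc22d3 and Errfi1), beside 6.37% of all genes. Since the genes were chosen on this difference, nothing is read from these counts. The difference between the fat and the liver effect was called for 0 of 9 members and for 0% of 17070 genes (2163 at an unadjusted p under 0.05, and 493 called by DESeq2, none of them a member), and its fitted values ran from -0.94 ± 0.38 for Errfi1 to 0.29 ± 0.37 for Hsd11b1. In 1 of its 19 alternative fits a member was called: without fat hHKDC1 OE replicate 2 the value for Klf9 was -1.04 (adjusted p = 0.0323, edgeR), beside 2.86% of all genes called lower. Without the libraries described as knockout the values were -1.73 for Mt1, -0.90 for Errfi1, -0.78 for Klf9, -0.55 for Nr3c1, -0.43 for Sgk1, -0.32 for Tsc22d3, -0.17 for Zbtb16, -0.15 for Fkbp5 and 0.39 for Hsd11b1, with no member called.

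These counts changed with the libraries and with the method, and the causes were not tested. Without hHKDC1 OE replicate 2, 5 of 9 members were called lower in fat (Fkbp5 -2.12, Tsc22d3 -1.55, Zbtb16 -2.0, Klf9 -1.02 and Sgk1 -0.84 on the log2 scale), beside 7.53% of all genes called lower. In liver 2 were called lower without it (Fkbp5 -1.86 and Zbtb16 -1.43), beside 0.508% of all genes. The library left out was the hHKDC1 OE library nearest to null for each of these genes, so their larger values without it are not read as support. DESeq2 on all 6 libraries called Fkbp5, Tsc22d3 and Errfi1 lower in fat, beside 1.22% of genes, and Fkbp5 and Tsc22d3 lower in liver, beside 0.36%. With no filter on low counts edgeR called the same 3 members in fat, beside 0.268% of genes, and the same pair in liver, beside 0.593%. With the 12 libraries in 1 fit it called Errfi1 lower in fat, beside 0.621%. Without the libraries described as knockout, which leaves 1 hHKDC1 OE library per tissue that is assumed to vary as the null libraries did, the log2 fold change of Fkbp5 was -1.89 in fat and -1.67 in liver, and that of Tsc22d3 was -1.39 and -0.99. On the same terms the fat values were -1.47 for Zbtb16, -0.81 for Sgk1, -0.92 for Klf9, -1.19 for Mt1, -0.39 for Nr3c1, 0.11 for Hsd11b1 and -1.05 for Errfi1. The liver values were -1.22 for Zbtb16, -0.30 for Sgk1, -0.06 for Klf9, 0.61 for Mt1, 0.24 for Nr3c1, -0.20 for Hsd11b1 and -0.07 for Errfi1, and the signs of Hsd11b1 in fat and of Mt1 in liver turned. In these fits edgeR called Tsc22d3, Zbtb16 and Mt1 lower in fat, beside 1.24% of all genes, and Fkbp5 lower in liver, beside 0.182%. The other 9 alternative fits in fat and 10 in liver called no member. Errfi1 in fat was -0.80 without null replicate 3, the library with the most hepatocyte marker signal.

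**Figure D3:**
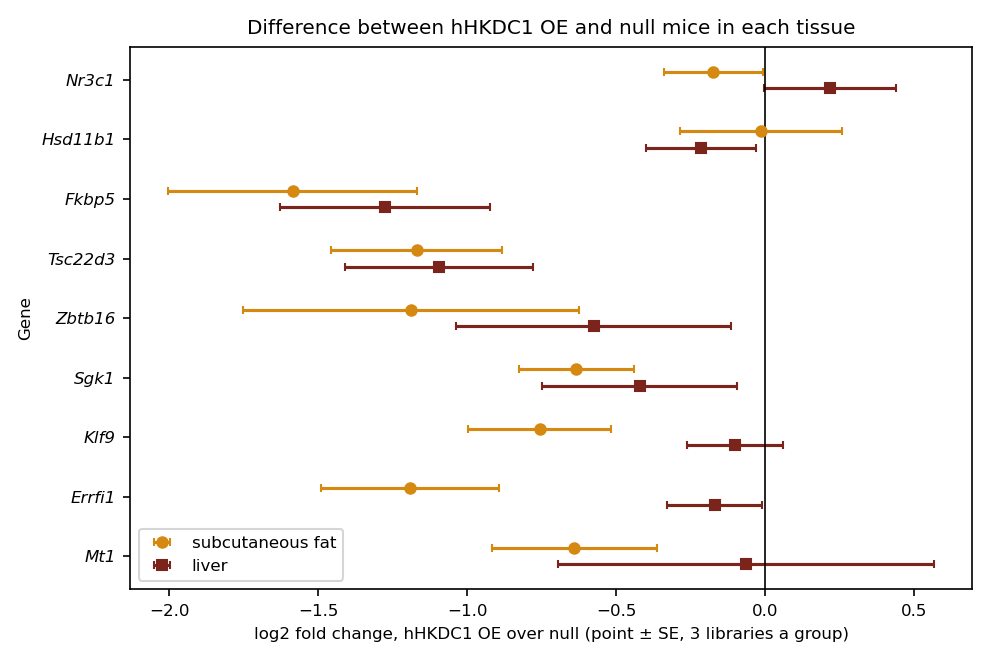
Log2 fold change of hHKDC1 OE over null with its standard error from edgeR, 3 libraries a group, in fat (circles) and liver (squares). Fkbp5 and Tsc22d3 lie below -1 in both tissues, while Klf9 and Errfi1 lie near 0 in liver.

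Library by library, Fkbp5, Tsc22d3, Zbtb16 and Sgk1 moved together. Over the 12 libraries, with the mean of each tissue removed, Pearson's r was 0.92 between Fkbp5 and Tsc22d3, 0.92 between Fkbp5 and Zbtb16, 0.91 between Tsc22d3 and Sgk1, and 0.79 to 0.82 for the other pairs of these 4 genes. These correlations are descriptions: the points share their libraries, and the difference between the vectors that chose the genes is part of them. Klf9 correlated with those 4 genes at 0.86 to 1.00 over the 6 fat libraries and at -0.57 to -0.10 over the 6 liver libraries. Nr3c1 ran against them in liver, at -0.92 to -0.64, and weakly with them in fat, at 0.22 to 0.61. Mt1 correlated with the same 4 genes at 0.20 to 0.51 in fat and at -0.42 to -0.31 in liver, and Hsd11b1 at -0.58 to -0.34 in fat and at 0.56 to 0.90 in liver. Errfi1 correlated with them at 0.54 to 0.78 in fat and at 0.51 to 0.80 in liver.

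The genes whose profile was most like theirs were ranked among 17069 genes by the same measure. For Fkbp5 they were Lpin1 (r = 0.964), Fam107a (0.943) and Rhobtb1 (0.941), and for Tsc22d3 they were Aqp1 (0.946), Lpin1 (0.940) and Wbp1l (0.935). For Zbtb16 they were Rusc2 (0.967), Gm44421 (0.945) and Gpr135 (0.939). Lpin1, a phosphatidate phosphatase of triglyceride synthesis, headed the ranking of Fkbp5 and came second for Tsc22d3. It measured 532 to 725 CPM in null fat against 229.6 to 349 CPM, and 958 to 1290.2 CPM in null liver against 295 to 619 CPM, without overlap in either tissue.

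**Figure D4:**
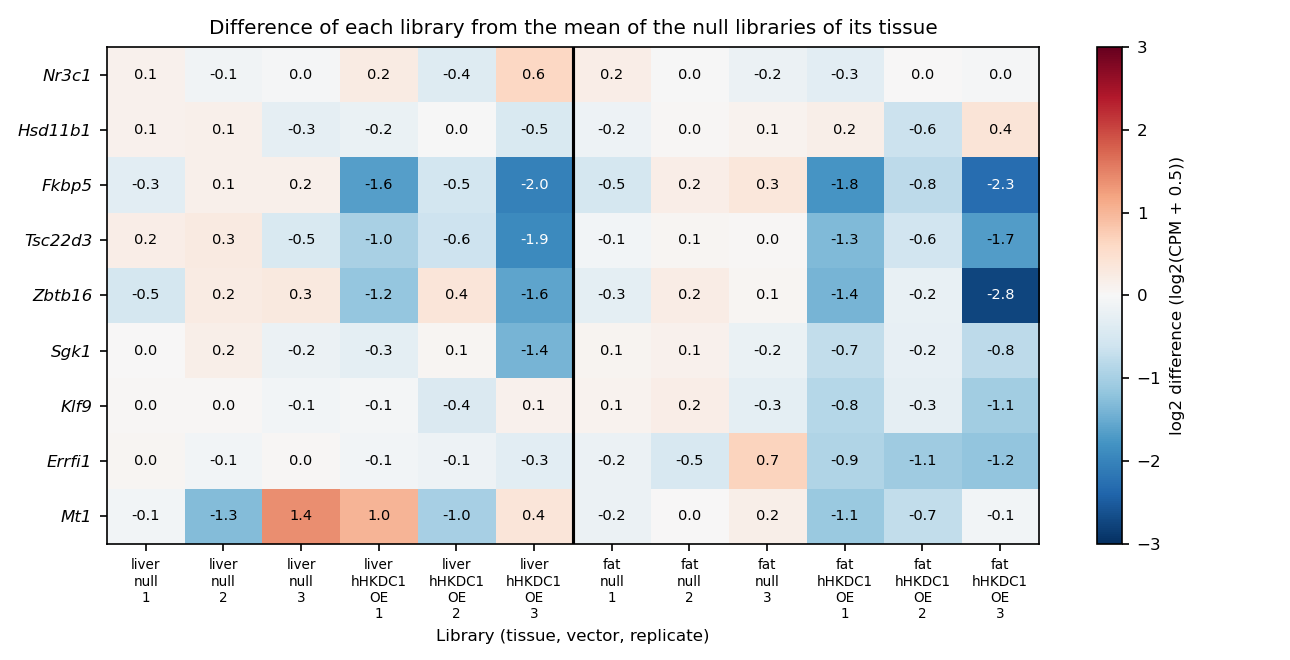
Difference of each library from the mean of the 3 null libraries of its tissue, on the log2(CPM + 0.5) scale, for 9 members (rows) and 12 libraries (columns, liver left of the line and fat right of it). Blue cells are lower and red cells higher than the null mean. Replicates 1 and 3 of the hHKDC1 OE group are darkest for Fkbp5, Tsc22d3 and Zbtb16 in both tissues.

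The cell makeup of the fat also moved with the vectors, and in bulk tissue fewer cells of a type and less RNA per cell cannot be told apart. The sum of 10 B cell markers was 1.81 to 3.16 CPM in null fat, whereas replicates 1 to 3 of the hHKDC1 OE group held 788, 45.2 and 585 CPM, and the sum of 10 T cell markers was 5.44 to 12.7 CPM against 411, 31.9 and 450 CPM. Replicate 2, in which Fkbp5, Tsc22d3, Zbtb16, Sgk1 and Klf9 were nearest to null, thus held the least lymphocyte signal of the 3. Its adipocyte marker sum of 31530 CPM lay within the null range of 27164 to 32336 CPM, whereas replicates 1 and 3 held 19124 and 23647 CPM. Macrophage markers summed to 215 to 462 CPM in null fat, against 650 to 1082 CPM under hHKDC1 OE. Skeletal muscle markers ranged from 432 to 18769 CPM in null fat and from 887 to 13205 CPM under hHKDC1 OE, and keratinocyte markers from 22.1 to 284 CPM and from 17.2 to 55.8 CPM. Per unit of adipocyte marker signal, the ratio of hHKDC1 OE to null means was 0.42 for Fkbp5, 0.562 for Tsc22d3, 0.537 for Zbtb16, 0.592 for Errfi1, 0.753 for Klf9, 0.825 for Sgk1 and 0.842 for Mt1, against 1.14 for Nr3c1 and 1.37 for Hsd11b1. The study reported lower expression of adipogenesis genes in this fat, so the adipocyte marker sum is no count of adipocytes. The ratio of Errfi1 still includes any hepatocyte signal described above. The part of these cell markers in the fat values was not tested beyond that.

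In liver the lymphocyte markers did not separate the vectors. The B cell sum was 1.36 to 5.0 CPM in null liver and 2.46 to 4.61 CPM in hHKDC1 OE liver, with up to 6 of the 10 markers at 0, and the T cell sum was 4.50 to 11.7 CPM and 4.61 to 6.64 CPM. Macrophage markers summed to 166 to 260.3 CPM in null liver and 245 to 464 CPM in hHKDC1 OE liver. The hepatocyte sum was 153709 to 160957 CPM in null liver and 144706, 119435 and 107039 CPM in hHKDC1 OE replicates 1 to 3. All 3 hHKDC1 OE livers lay below all 3 null livers in this sum, and replicate 3 was the lowest in it as it was in Fkbp5. Its part in the liver values was not tested.

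Between the tissues 5 of the 9 members tested differed in null mice, beside 64.3% of 15259 genes (edgeR quasi-likelihood test with Benjamini-Hochberg adjustment over all genes, here and in the next 2 paragraphs). The genes were chosen with earlier results of these data known, so these p-values may not be free of that choice. Sgk1 was higher in fat, with a log2 fold change of 2.00 ± 0.15 (adjusted p = 1.87e-05), all 3 fat libraries lying above all 3 livers. Zbtb16 was higher in fat by 1.24 ± 0.25 (adjusted p = 0.00295) and Nr3c1 by 0.55 ± 0.15 (adjusted p = 0.011). Hsd11b1 fell by 2.24 ± 0.20 on the log2 scale from liver to fat (adjusted p = 3.84e-05) and Errfi1 by 4.47 ± 0.35 (adjusted p = 2.28e-05). The share of members called was no larger than that of all genes. The call of Zbtb16 was lost when all 12 libraries were fitted together (adjusted p = 0.0835), and that of Nr3c1 without liver null replicate 2 (adjusted p = 0.0568). Klf9 was 0.39 ± 0.16 higher in fat (adjusted p = 0.0574), a value that passed the threshold in 6 of 13 alternative fits, DESeq2 among them (adjusted p = 0.0291).

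Fkbp5 and Tsc22d3 showed no call between fat and liver in null mice, with log2 fold changes of -0.14 ± 0.26 (adjusted p = 0.664) and -0.25 ± 0.21 (adjusted p = 0.329). Their sign depended on the scaling. The TMM factors were 0.688 to 0.821 in liver and 1.24 to 1.40 in fat, and with library size alone, chosen after seeing the data, the median of all genes rose from 0.09 to 0.98. On that scale Fkbp5 was at 0.75 (adjusted p = 0.0402) and Tsc22d3 at 0.64 (adjusted p = 0.0228), both still below that median. Mt1 differed by 0.42 ± 0.57 (adjusted p = 0.546), a value that ran from -0.03 without liver null replicate 2 to 1.39 without liver null replicate 3, where it passed the threshold (adjusted p = 0.015).

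In hHKDC1 OE mice 3 of 9 members differed between the tissues, beside 56.7% of 15817 genes. Sgk1 was higher in fat by 1.78 ± 0.38 on the log2 scale (adjusted p = 0.00497), Hsd11b1 fell by 2.07 ± 0.30 (adjusted p = 0.000755) and Errfi1 fell by 5.51 ± 0.29 (adjusted p = 8.8e-06). These 3 calls held in each of the 14 alternative fits. The product of liver level and hepatocyte percentage was 58.4% to 66.1% of the Errfi1 level in null fat and 82.9% to 107% in hHKDC1 OE fat. The part of that signal in the Errfi1 differences between the tissues was not tested. Without the libraries described as knockout, with the null libraries in the fit to give the spread, the values were 1.58 for Sgk1, -1.84 for Hsd11b1 and -5.36 for Errfi1, and the other 6 members were not called, at -1.30 for Mt1, -0.56 for Tsc22d3, -0.39 for Klf9, -0.28 for Fkbp5, 0.00 for Nr3c1 and 1.08 for Zbtb16. Zbtb16 was 0.64 ± 0.71 higher in fat (adjusted p = 0.469) and turned to -0.23 without fat hHKDC1 OE replicate 2, the library that held 125 CPM against 55.9 and 21.1. Nr3c1 was at 0.14 ± 0.26 (adjusted p = 0.682). Fkbp5 was at -0.44 ± 0.50 (adjusted p = 0.479), Tsc22d3 at -0.32 ± 0.40 (adjusted p = 0.524), Klf9 at -0.28 ± 0.27 (adjusted p = 0.409) and Mt1 at -0.19 ± 0.48 (adjusted p = 0.753), and all 4 turned positive with library size alone, where the median of all genes rose from 0.12 to 1.11. The difference between the vectors in these tissue differences is the fat effect minus the liver effect given above, which was called for no member with all 12 libraries in the fit.

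**Figure D5:**
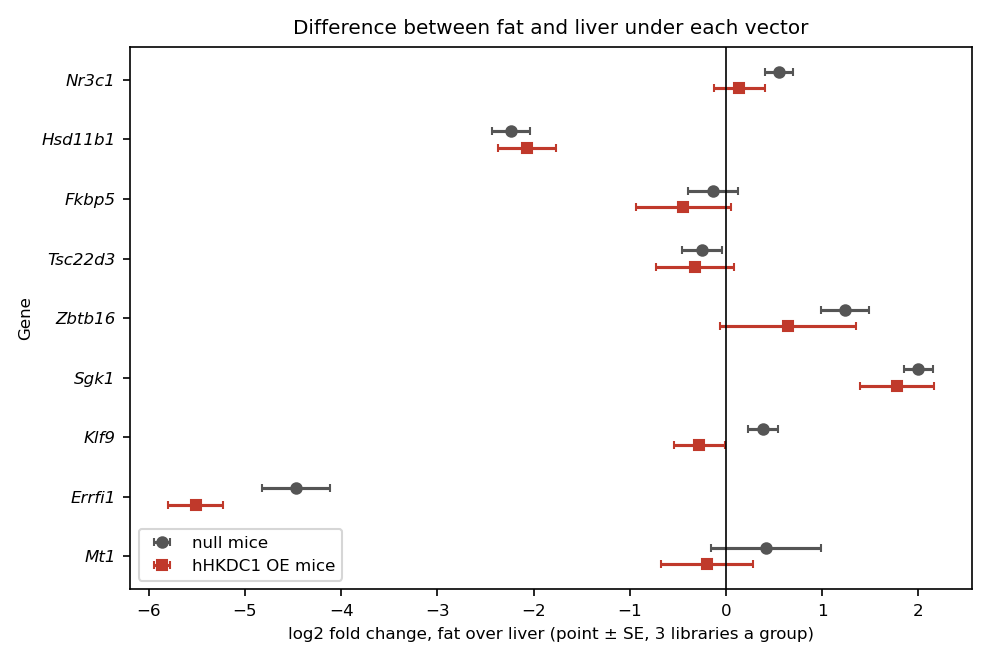
Log2 fold change of fat over liver with its standard error from edgeR, 3 libraries a group, in null mice (circles) and hHKDC1 OE mice (squares). Sgk1 lies near 2 and Hsd11b1 near -2 under both vectors, and Errfi1 lies at -4.47 in null and -5.51 in hHKDC1 OE mice.

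Per unit of gene length the order of the members differed between the tissues. In null liver the deposited FPKM was highest for Errfi1 (509 ± 24.9, SD, n = 3), then Hsd11b1 (191 ± 31.0), Mt1 (99.0 ± 86.4), Tsc22d3 (67.2 ± 17.3), Klf9 (28.8 ± 1.34), Fkbp5 (21.6 ± 3.69), Zbtb16 (11.6 ± 3.29), Nr3c1 (11.3 ± 0.972) and Sgk1 (4.48 ± 0.555). Of these neighbours Hsd11b1 and Mt1, Mt1 and Tsc22d3, and Zbtb16 and Nr3c1 had overlapping ranges. In null fat the order was Mt1 (138 ± 19.0), Tsc22d3 (58.6 ± 3.29), Hsd11b1 (42.1 ± 4.46), Klf9 (39.0 ± 5.72), Zbtb16 (28.4 ± 4.75), Errfi1 (24.0 ± 11.0), Fkbp5 (20.4 ± 6.17), Sgk1 (18.6 ± 1.81) and Nr3c1 (17.2 ± 2.14). There Hsd11b1 overlapped with Klf9, and from Zbtb16 down each neighbour overlapped with the next. In the hHKDC1 OE fat Fkbp5 moved to the lowest place of the 9, at 6.64 ± 3.93 FPKM, and its range overlapped with that of Errfi1 above it.

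Other genes of the pathway were taken from 7 lists of 77 genes, and none of them was called between the vectors in either tissue by edgeR, whereas DESeq2 called 10 in fat and 7 in liver. Its calls in fat were 4 higher and 6 lower, beside 6.72% and 1.22% of all genes, and in liver 3 higher and 4 lower, beside 0.315% and 0.36%. Of 19 other genes widely induced by glucocorticoids, 14 had lower fitted values in fat with a median of -0.51, and 13 in liver with a median of -0.32. Over all genes, 8824 of 16380 had lower fitted values in fat and 6530 of 13351 in liver, with medians of -0.05 and 0.01. The lists were chosen with earlier results of these data known, so nothing is read from these counts or from those of the lists below. In fat the extremes were Lcn2 (2.64) and Rgs2 (0.53) above and Cebpd (-1.39) and Lpin1 (-1.26) below. In liver they were Lcn2 (5.17) and Dusp1 (0.76) above and Cdkn1a (-3.18) and Pdk4 (-1.58) below. Lcn2, a siderophore-binding protein that also responds to inflammation, measured 5.83 to 28.0 CPM in null livers and 64.2 to 937 CPM in hHKDC1 OE livers. Its liver level multiplied by the hepatocyte percentage was 17.6% to 44.8% of its level in null fat and 71.3% to 258% in hHKDC1 OE fat. Pdk4, a kinase that restrains pyruvate oxidation, measured 6.18 to 8.52 CPM in null livers and 1.73 to 3.51 CPM in hHKDC1 OE livers.

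Among 10 targets induced in liver, which include enzymes of amino acid breakdown and gluconeogenesis, 8 had lower fitted values in liver with a median of -0.40. The extremes were Orm1 (2.02), which encodes an acute-phase protein, and Agt (0.02) above and Tat (-1.11) and Got1 (-0.66) below. Tat, a tyrosine aminotransferase long used as a marker of hormone action in liver, measured 3108 to 5358 CPM in null and 720.2 to 2943 CPM in hHKDC1 OE liver. In fat all 10 had lower fitted values with a median of -1.41, beside 8824 of all 16380 genes and a median of -0.05. They ran from Ppargc1a (-0.21) and Pck1 (-0.25) to Sds (-2.0) and Tat (-2.21). edgeR called none of them, and null and hHKDC1 OE values overlapped for all but Tat, Tdo2 and Got1. The product of liver level and hepatocyte percentage exceeded the fat level of Tdo2 (132% to 175% of it in null and 141% to 471% in hHKDC1 OE fat) and G6pc (116% to 153% and 113% to 500%) as it did for Tat, but was at most 17.7% of that of Ppargc1a and 12% of that of Pck1. The part of liver transcripts in these fat values was not tested further.

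Among 12 genes of the receptor's chaperones and coregulators, 7 had higher and 5 lower fitted values in fat with a median of 0.13, and the liver median was 0.04. Ptges3, the Hsp90 co-chaperone p23, was the highest in fat at 0.46 and the coactivator Ncoa3 came next at 0.37, while the coactivator Ncoa1 was at -0.34. In liver the values ran from Hspa8 (-0.25) and Stip1 (-0.23) to Ncoa2 (0.23) and Nr3c2 (0.49), the mineralocorticoid receptor. Of 5 genes of hormone metabolism and transport, 4 had lower fitted values in fat, and the groups overlapped for all 5. Serpina6 (-1.61), the plasma corticosteroid carrier, and Akr1d1 (-1.58) were lowest there, and Hsd11b2 (0.41), the inactivating enzyme, and Srd5a1 (-0.50) highest. The product of liver level and hepatocyte percentage was 136% to 638% of the fat level for Serpina6 and 115% to 723% for Akr1d1. In liver the 4 genes tested ran from Serpina6 (-0.34) and Srd5a1 (-0.30) to Akr1d1 (-0.17) and H6pd (0.24).

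Among 12 inflammatory genes that glucocorticoids repress, 8 were tested in fat and 7 of them had higher fitted values with a median of 1.12, from Nos2 (-0.21) and Cxcl1 (0.70) to Icam1 (1.59) and Ccl5 (4.86). Ccl5, a chemokine made by T cells, measured 2.31 to 5.88 CPM in null and 12.4 to 184 CPM in hHKDC1 OE fat, beside the T cell marker sums given above. In liver 6 were tested, from Ccl5 (-1.18) and Vcam1 (-0.90) to Cxcl1 (1.09) and Il1b (1.72). The 7 genes of the metal response, to which Mt1 also belongs, had a median of -0.04 in fat and the 6 tested in liver one of -0.07. In fat they ran from Slc39a14 (-0.62) and Mt3 (-0.54) to Slc30a1 (0.19) and Hmox1 (0.61), and in liver from Mtf1 (-0.25) and Slc39a14 (-0.23) to Slc30a1 (0.26) and Hmox1 (0.30).

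Circadian clock genes were examined because corticosterone follows a daily rhythm, and collection times were not given in the sources used here. Of 12 clock genes in fat 7 had lower fitted values, beside 8824 of all 16380 genes. Their median was -0.26, from Ciart (-1.11) and Per2 (-0.88) to Arntl (0.71) and Npas2 (0.85). The groups did not overlap for 4 of the lower and 1 of the 5 higher genes, and none was called by edgeR. Per2, a period gene with a known glucocorticoid response, measured 39.8 to 51.4 CPM in null and 19.4 to 34.6 CPM in hHKDC1 OE fat. In liver the 11 tested had a median of 0.01, from Arntl (-0.85) and Ciart (-0.62) to Dbp (0.74) and Bhlhe41 (1.17). Markers of the adrenal cortex, the source of the hormone, summed to 20.8 to 22.8 CPM in null and 13.7 to 25.3 CPM in hHKDC1 OE fat, with 4 or 5 of the 8 at 0.

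Between the tissues in null mice all 10 of the liver-induced targets were called lower in fat, led by Igfbp1 (-5.94), Tdo2 (-5.63), Tat (-5.57) and G6pc (-5.46), beside 30.5% of all genes called lower. That list was made up of targets in liver, so a lower level in fat was built into it and is no result about the hormone. In the list of widely induced targets 7 were called higher and 8 lower in fat, led by Anxa1 (6.25), Pdk4 (4.89), Lcn2 (-3.33) and Cebpb (-2.08), beside 33.8% of all genes called higher. The chaperones and coregulators gave 3 higher and 7 lower, led by Fkbp4 (-1.92) and Ptges3 (-1.44), followed by Hspa8 (-1.36) and Hsp90ab1 (-1.14). The steroid genes Serpina6 (-5.74), Akr1d1 (-5.52) and Srd5a1 (-5.29) were called lower in fat. The clock gave 4 higher and 2 lower, led by Bhlhe41 (3.10), Ciart (-2.91), Hlf (-2.0) and Nr1d1 (1.66). The metal response gave 2 higher and 4 lower, led by Mt3, Slc39a14 (-3.84), Gclc (-3.24) and Slc39a10 (1.95), and the inflammatory genes gave Nos2 and Mmp9 (2.08) higher and Cxcl1 (-3.20) lower. Mt3 was at 0 counts in every null liver and at least 10.3-fold higher in fat, against a floor of 3 counts over the group, and Nos2 held at most 2 counts in a null liver, so that their fitted values are not given.

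In hHKDC1 OE mice 9 of the 10 liver-induced targets were called lower in fat, led by Igfbp1 (-7.00), Tdo2 (-6.82), G6pc (-6.77) and Sds (-6.77), beside 25.5% of all genes. Here too the make-up of that list favoured these calls. The inflammatory genes gave 7 higher and 1 lower, led by Nos2, Ccl5 (6.23), Mmp9 (4.05) and Ccl2 (3.82), beside 31.2% of all genes called higher in fat. Nos2 was at 0 counts in every hHKDC1 OE liver and at least 103-fold higher in fat, against the same floor. The widely induced targets gave 5 higher and 7 lower, led by Lcn2 (-5.92), Pdk4 (5.66), Anxa1 (5.45) and Cdkn1a (3.92). The chaperones and coregulators gave 1 higher and 6 lower, led by Fkbp4 (-1.70), Nr3c2 (-1.49), Ptges3 (-1.01) and Hspa8 (-1.0). The steroid genes gave 1 higher and 4 lower, led by Serpina6 (-7.04), Akr1d1 (-6.96), Srd5a1 (-5.54) and Hsd11b2, which was higher in fat and held at most 2 counts in a hHKDC1 OE liver. The metal response gave 3 higher and 4 lower, led by Mt3, Slc39a14 (-4.26), Gclc (-3.35) and Slc39a10 (2.10), where Mt3 was again at 0 counts in every liver and at least 8.26-fold higher in fat. The clock gave 3 higher and 6 lower, led by Ciart (-3.40), Bhlhe41 (2.39), Hlf (-1.97) and Arntl (1.30).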

How the data were processed

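Bulk RNA-seq of 12 libraries was read from 1 table of deposited counts per gene and 1 of deposited FPKM. Per the study's methods, the authors made non-strand-specific libraries and sequenced them in pairs. The submitters' processing notes name STAR 2.5, HTSeq 0.6.1 and DESeq2 2. The methods name a human reference, whereas the deposited counts carry mouse Ensembl identifiers with GRCm38 positions. FPKM was divided by library and gene length by the authors before deposit. Each column matched 1 sample title.

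The members and gene lists were chosen with earlier results of these data known. Each comparison was fitted on its own groups (all 12 libraries for the difference between the 2 effects) with edgeR 4.0.16 in R 4.3.3 (TMM, filterByExpr, quasi-likelihood test, Benjamini-Hochberg adjustment over all tested genes, threshold 0.05). Of each list, genes past the threshold, at most the 4 with the largest change, were named; where none passed, the 2 highest and 2 lowest fitted values were. No list gene was named for the difference between the 2 effects, where edgeR called none, and 1 gene that the rule names elsewhere is left out of the text. The 3 genes most like Fkbp5, Tsc22d3 and Zbtb16 were named by Pearson's r of log2(CPM + 0.5). Alternatives used DESeq2 1.42.0, limma 3.58.1 on log2(FPKM + 1) for genes of mean FPKM of at least 0.1, upper-quartile scaling, library size alone (added after seeing the data), no filter, 12 libraries in 1 fit, a replicate block, and left-out libraries. The study gives 3 mice per group for the fat libraries; the labels tie no library to a mouse, so p-values measure the spread between libraries. The fits were tested on counts simulated with edgeR's own estimates of spread, in which 200 genes were changed by 2 on the log2 scale. In the fat comparison DESeq2 made a larger share of false calls than edgeR, 62 of 226 against 5 of 125. It also recovered more of the changed genes there, 82% against 60%. In liver edgeR recovered 91.5% of them, with 20 false calls of 203.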

Additional observations from a re-analysis of the deposited data

How the results depend on the processing

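Counts of genes called between the vectors depended on the method. In fat the count was 0, but 1301 with DESeq2, 803 with no filter on low counts, 876 with the 12 libraries in 1 fit, 1024 without the libraries described as knockout and 1 with limma; leaving out 1 replicate gave 0 to 3251, the highest without hHKDC1 OE replicate 2. In liver it was 0, but 90 with DESeq2, 327 with no filter, 2 with library size alone, 76 without the libraries described as knockout and 3 with limma; leaving out 1 replicate gave 0 to 146. For the difference between the 2 effects it was 0, but 493 with DESeq2, 479 with no filter and 126 without the libraries described as knockout; leaving out 1 replicate gave 0 to 1211. The causes were not tested.

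Between the tissues the counts stayed within 1.5 times 9810 (null) and 8961 (hHKDC1 OE), but library size alone, added after seeing the data, moved the split from 5163 higher and 4647 lower to 9012 and 2286 in null mice, and from 4931 and 4030 to 9679 and 1943 in hHKDC1 OE mice. Signs that turned were those of members without a call in the fits reported, and with library size alone Fkbp5 and Tsc22d3 in null mice and Klf9 (adjusted p = 0.0298) and Nr3c1 (1.15, adjusted p = 0.00427) in hHKDC1 OE mice passed the threshold (edgeR). In null mice Fkbp5 went to 0.03 with upper-quartile scaling and 0.75 with library size alone, and Tsc22d3 to 0.64 with the latter; leaving out 1 replicate, Fkbp5 ran from -0.30 to 0.13 and Mt1 from -0.03 to 1.39. In hHKDC1 OE mice library size alone gave 0.51 for Fkbp5, 0.66 for Tsc22d3, 0.72 for Klf9 and 0.86 for Mt1, and Mt1 was at 0.03 with upper-quartile scaling and 0.01 with limma. There, leaving out 1 replicate, Fkbp5 ran from -1.04 to 0.12, Klf9 reached -0.59 (adjusted p = 0.0384, edgeR) without fat replicate 2, Mt1 from -0.57 to 0.33, Nr3c1 from -0.09 to 0.39 and Zbtb16 from -0.23 to 1.47. Without the libraries described as knockout, which leaves 1 hHKDC1 OE library a tissue that is assumed to vary as the null libraries did, 6332 genes were called between the tissues.

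Same-numbered libraries of different groups did not deviate together in every pair, so the numbers are taken as shared numbers only. In null mice same-numbered liver and fat libraries correlated at 0.259, 0.044 and 0.138, above the -0.203 to 0.029 of the other pairs. In hHKDC1 OE mice they correlated at 0.026, 0.06 and 0.046, against -0.178 to 0.162. Whether the null tissues were paired by mouse was not tested, and the fits reported ignore any such pairing. With a replicate block, 168 genes were called in fat, 17 in liver and 4 for the difference between the effects, among them no member; Klf9 in null mice passed the threshold between the tissues (0.38, adjusted p = 0.0481, edgeR).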
